A study of Rattus norvegicus with 31 samples.

Results

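Genes that carry dopamine and adenosine signals through cyclic AMP in striatal spiny neurons, 10 in number, were followed on every array of the series. They were chosen by the symbol of the probe: Gnal, Gng7, Adcy5, Pde10a, Pde1b, Ppp1r1b, Ptpn5, Rgs9, Rgs2 and Rgs4. The 10 genes had 11 probes among the 22519 probes used, since Ppp1r1b has a pair of probes (ILMN_2040370 and ILMN_2039038). All 11 probes were called detected, with a detection p under 0.01, on each of the 31 arrays, so none lay below detection in any group.

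In spiny neurons of the striatum, the dopamine receptor of Drd1 and the adenosine receptor of Adora2a act through the G protein Golf, of which Gnal encodes the alpha subunit and Gng7 a gamma subunit, to switch on the adenylyl cyclase encoded by Adcy5. The cyclic AMP made there activates protein kinase A, and the phosphodiesterases encoded by Pde10a and Pde1b break cyclic nucleotides down. Protein kinase A phosphorylates DARPP-32, the product of Ppp1r1b, which then inhibits protein phosphatase 1, and it also phosphorylates STEP, the striatal tyrosine phosphatase encoded by Ptpn5. Rgs9, Rgs2 and Rgs4 encode regulators of G protein signalling, which speed up the return of G proteins to their resting state.

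Each array, an Illumina RatRef-12 BeadChip, measured the RNA of 1 striatum of a male Sprague-Dawley rat. Hemiparkinsonian rats had received 6-OHDA, a toxin that destroys catecholamine neurons, in the left medial forebrain bundle (5 µl at 2 µg/µl), and were killed 2 h after saline or methamphetamine (METH) at 2.5 mg/kg. METH releases dopamine and other monoamines from nerve endings. The groups were the lesioned (ML, 6 arrays) and non-lesioned side (MNL, 6 arrays) of METH-treated 6-OHDA rats, the lesioned (SL, 6 arrays) and non-lesioned side (SNL, 5 arrays) of saline-treated 6-OHDA rats, and METH-treated (MC, 4 arrays) and saline-treated (SC, 4 arrays) control rats without 6-OHDA. All 6-OHDA rats, those later given saline included, had earlier been tested for rotation after apomorphine and after METH, while the drugs that control rats received before the last injection are not spelled out in the methods, so lesion surgery and any difference in earlier drug exposure cannot be told apart when the 2 kinds of rat are compared. Replicates are called here by the striatum number in the labels. Which 2 striata belong to the same rat is not stated, and p-values therefore measure only how much single striata differ. In whole striatum, fewer spiny neurons and less RNA per spiny neuron cannot be told apart.

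Between 8042 and 9451 probes were detected per array, and 9732 probes entered the tests. The columns of ML 22 and SL 32 stood 4 rows away from their probe names and were moved back. Of 26 other spiny neuron genes listed as markers, 20 had a probe and all 20 were tested, so the tissue carried the transcripts of striatal spiny neurons. The defining transcripts of dopamine neurons (Th, Slc6a3, Slc18a2 and Ddc), whose cell bodies lie outside the striatum, were not detected on any array, so these probes give no check of the lesion.

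Rgs4, Rgs2 and Pde10a are shown with the 250 bases before their annotated start. They were picked because these windows hold TGACG, the core letters of the cyclic AMP response element to which CREB binds. Sequences are from RefSeq on GRCr8, 5′ to 3′ on the strand of the gene, with TGACG, or CGTCA where it lies on the other strand, in capitals.
Rgs4, chr13:84475885-84476134, minus strand: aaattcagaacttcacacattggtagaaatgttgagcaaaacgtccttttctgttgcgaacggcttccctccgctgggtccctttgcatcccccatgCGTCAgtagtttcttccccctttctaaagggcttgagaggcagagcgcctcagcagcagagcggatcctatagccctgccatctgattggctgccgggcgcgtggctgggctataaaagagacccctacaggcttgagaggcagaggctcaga
Rgs2, chr13:58352667-58352916, minus strand: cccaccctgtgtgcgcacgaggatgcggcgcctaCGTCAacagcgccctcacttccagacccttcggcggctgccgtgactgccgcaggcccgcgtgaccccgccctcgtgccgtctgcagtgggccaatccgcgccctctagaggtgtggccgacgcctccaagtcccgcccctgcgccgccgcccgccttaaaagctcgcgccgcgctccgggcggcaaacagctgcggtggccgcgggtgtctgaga
Pde10a, chr1:54765669-54765918, minus strand: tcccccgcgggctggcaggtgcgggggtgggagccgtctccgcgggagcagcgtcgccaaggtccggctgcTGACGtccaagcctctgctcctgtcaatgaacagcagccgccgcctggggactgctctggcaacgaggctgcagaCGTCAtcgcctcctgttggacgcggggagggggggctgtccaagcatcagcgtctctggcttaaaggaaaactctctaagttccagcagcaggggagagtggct

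These letters begin 153 bases before the start in Rgs4, 216 before it in Rgs2, and 179 and 104 before it in Pde10a. Promoters of 8 of the 10 genes were matched by symbol, in 9 windows, and these 3 genes were the ones with TGACG on either strand, which 18.2% of all 33469 promoter windows hold. No window of the 8 genes held the whole element TGACGTCA, found in 1.59% of all windows, or the AP-1 letters TGANTCA, found in 6.34%. These are matches of letters only, and no binding was measured in these rats.

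**Figure D1:**
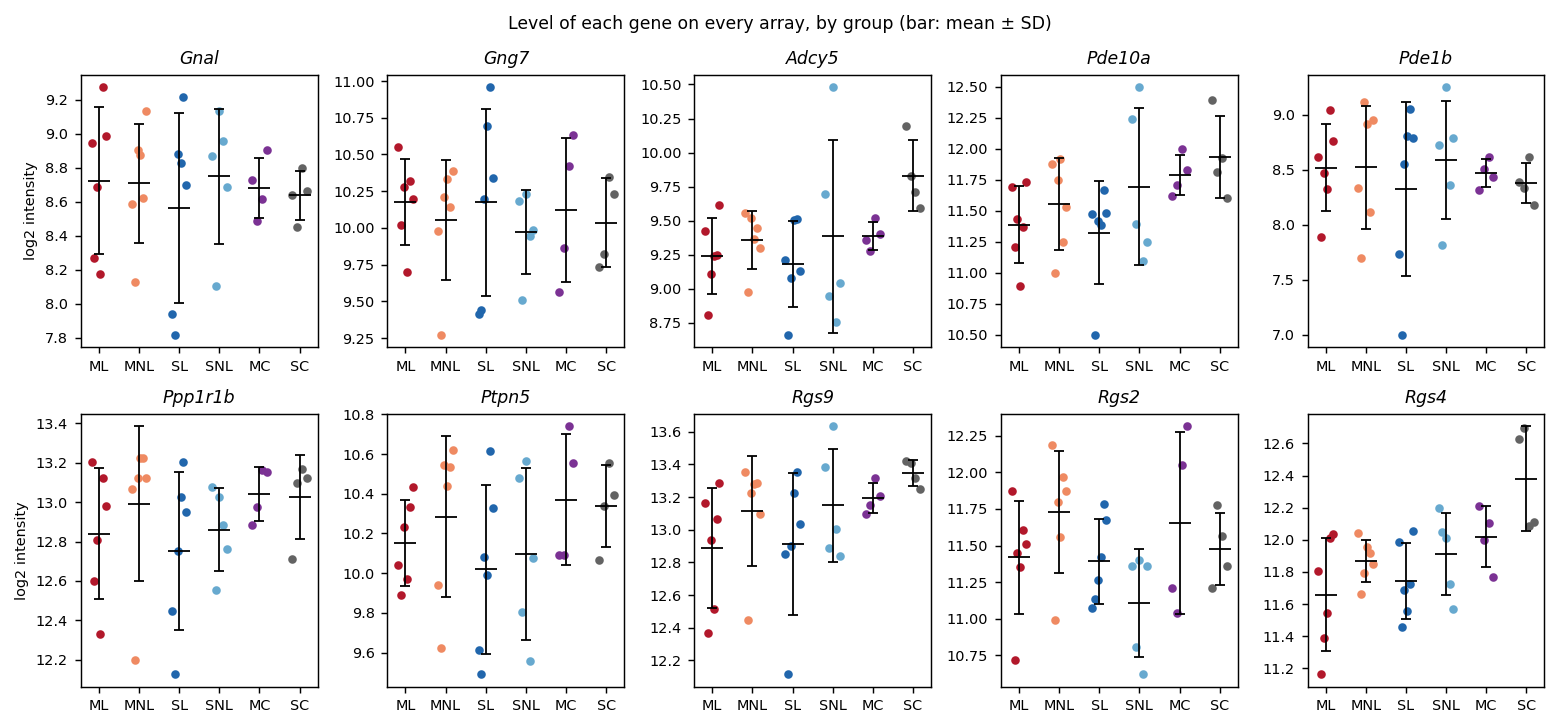
Normalized log2 intensity of the 10 genes (1 panel each, own vertical scale) on every array, by group, with a bar for the mean ± SD. In Rgs4, all 6 SL arrays sit below the 4 SC arrays, which lie between 12.09 and 12.69, while in most panels the groups overlap widely.

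The lesion was examined first within the 6-OHDA rats, as the average of ML minus MNL and SL minus SNL. Rgs9, Pde10a and Rgs4 were lowest on the lesioned side relative to the other side, and 9 of the 10 genes had a negative log2 fold change, but none passed limma's test at an adjusted p of 0.05, which 0.175% of all probes did. The median over the 10 genes was -0.13 on the log2 scale, against -0.01 over all probes tested, and 54.4% of all probes had a negative value. None of the 10 reached an unadjusted p of 0.05 in this fit either, a level that 3.4% of probes reached. With neighbouring striatum numbers as a random block, though no source pairs them, Rgs4, Rgs9 and Pde10a did (unadjusted p = 0.0284, 0.0362 and 0.0399 by limma). Their adjusted p were 0.613, 0.647 and 0.647 by limma, and the share of all probes under 0.05 with the block is not given. The 3.4% belongs to the fit without the block, and the block raised the number of probes passing after adjustment from 17 to 51. With the block Pde10a also reached an unadjusted p under 0.05 in saline-treated rats alone (unadjusted p = 0.0485, adjusted p = 0.441 by limma). Without the block, none passed after adjustment within METH-treated rats (0.123% of probes) or saline-treated rats (0.0822%) alone.

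Rgs9, a regulator of G protein signalling strongly enriched in striatum, lay in ML between 12.37 and 13.29 with a median of 13.00, and in MNL between 12.44 and 13.35 with a median of 13.25 (log2 intensity). In SL it lay between 12.11 and 13.35 with a median of 12.97, and the 5 SNL arrays gave 12.84, 12.89, 13.00, 13.39 and 13.63. Lesioned and non-lesioned striata overlapped in both treatments, and MNL 9 and SL 12 stood well under the rest of their groups. The averaged difference was -0.23 (SE 0.13, 95% interval -0.50 to 0.04, unadjusted p = 0.0876, adjusted p = 0.999 by limma).

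Pde10a encodes the main phosphodiesterase of spiny neurons. Its log2 intensity ran in ML between 10.90 and 11.73 with a median of 11.40, and in MNL between 11.00 and 11.92 with a median of 11.64. In SL it ran between 10.50 and 11.67 with a median of 11.45, and the SNL arrays gave 11.10, 11.25, 11.39, 12.24 and 12.50. The saline comparison leaned on SNL 3 and SNL 19, the only non-lesioned saline arrays above every SL array, while the other 3 SNL arrays lay inside the SL range. The averaged difference was -0.27 (SE 0.16, 95% interval -0.59 to 0.05, adjusted p = 0.999 by limma), made of -0.17 in METH-treated and -0.37 in saline-treated rats.

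Rgs4, another regulator of G protein signalling, gave -0.19 for the averaged lesion difference (SE 0.10, 95% interval -0.40 to 0.03, adjusted p = 0.999 by limma), with -0.21 in METH-treated and -0.17 in saline-treated rats. Without the striata numbered 9 to 12 it was -0.11. The remaining genes lay closer to 0, and single arrays moved several of them. Adcy5 gave -0.16 (SE 0.14), Pde1b, the calmodulin-dependent phosphodiesterase, -0.14 (SE 0.20), Ppp1r1b -0.13 (SE 0.13), Ptpn5 -0.10 (SE 0.14), Gnal -0.09 (SE 0.16) and Rgs2 -0.01 (SE 0.16). Gng7 was the only gene with a positive value, 0.16 (SE 0.17), and its 95% interval of -0.18 to 0.51 holds 0 as do those of the other 9 genes. Without SL 12, Gnal was -0.01 and Pde1b -0.0031, and without SNL 19 Adcy5 was -0.02. The weaker Ppp1r1b probe, with a detection p up to 0.00242, gave -0.07 (SE 0.09). For Ppp1r1b these intervals bound the averaged lesion difference between -0.39 and 0.13.

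The neuropeptide genes of the same cells showed what passed in this comparison. Among 20 tested spiny neuron genes outside the 10, Tac1, the substance P precursor of D1 neurons, fell (-1.20, adjusted p = 9.25e-05 by limma), as did Pdyn, which encodes prodynorphin (-0.76, adjusted p = 0.00231 by limma), and Penk, the enkephalin precursor of D2 neurons, rose (0.54, adjusted p = 0.0168 by limma). The other 17 did not pass. None of the receptors upstream of cyclic AMP passed among 7 tested, with Drd1 at -0.38 (SE 0.16) and Drd2 at 0.07 (SE 0.10), nor did any of 17 other G protein subunits, 8 other RGS genes, 4 other adenylyl cyclases, 10 other phosphodiesterases, 13 genes of protein kinase A, its inhibitors and anchors, or 19 phosphatase, kinase and glutamate receptor genes around DARPP-32 and STEP. The smallest p among these was that of Pde9a, a cyclic GMP phosphodiesterase, at -0.31 (SE 0.10, adjusted p = 0.522 by limma).

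**Figure D2:**
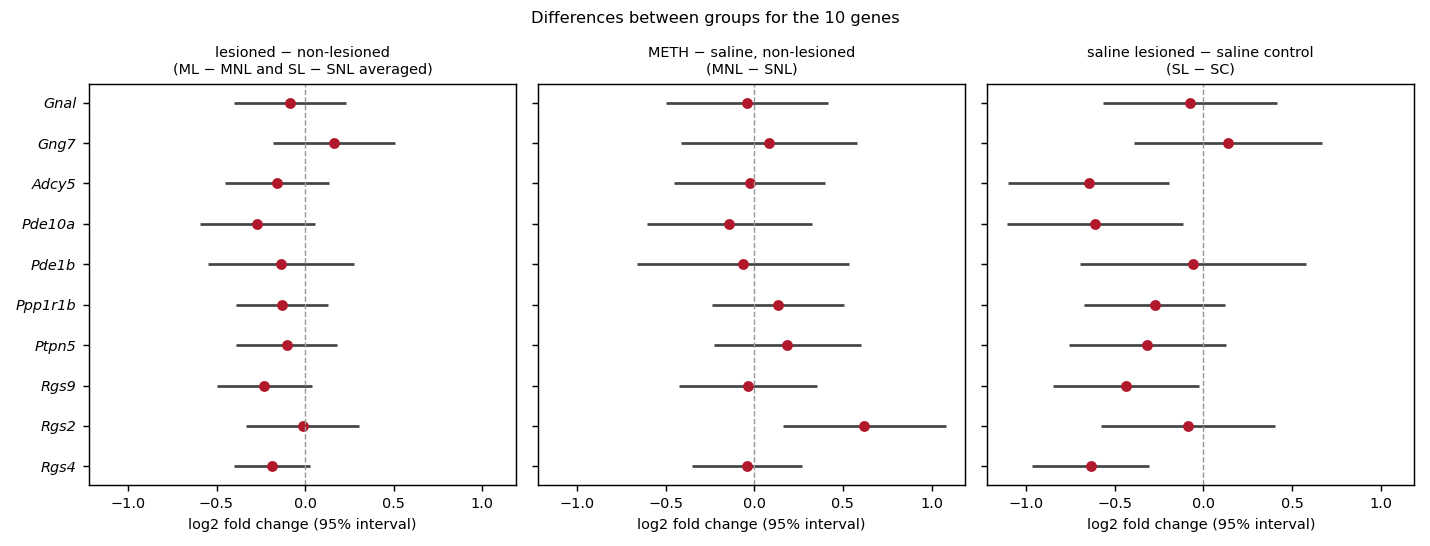
Log2 fold change (points) and its 95% interval (lines) of each gene for 3 comparisons from limma: the averaged lesion difference, MNL minus SNL, and SL minus SC. All 10 intervals hold 0 in the first panel, the interval of Rgs2 does not in the second, and those of Rgs4, Adcy5, Pde10a and Rgs9 do not in the third.

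METH was examined next on the side with its dopamine input. Rgs2 stood out from the other 9 genes: it averaged 11.73 ± 0.42 in MNL (SD, n = 6) and 11.11 ± 0.37 in SNL (SD, n = 5). In MNL it lay between 10.99 and 12.19 with a median of 11.84, and the SNL arrays gave 10.62, 10.81, 11.36, 11.36 and 11.40. Of the 6 MNL arrays 5 were above every SNL array, and the exception was MNL 9. The difference was 0.62 on the log2 scale, 1.54-fold (SE 0.23, 95% interval 0.16 to 1.08, unadjusted p = 0.0099, adjusted p = 0.839 by limma). By its p Rgs2 ranked 97 among the 9732 probes, of which 0.113% passed an adjusted p of 0.05 in this comparison and 5.21% an unadjusted one.

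In control rats Rgs2 varied more within the METH group than between groups. The MC arrays gave 11.04, 11.21, 12.05 and 12.32, and the SC arrays 11.21, 11.36, 11.56 and 11.78. The MC arrays split into a low pair, MC 13 and MC 5, and a high pair, MC 7 and MC 14, and the difference of 0.18 (SE 0.26, adjusted p = 0.910 by limma) turned to -0.04 without MC 14. The titles give the low pair the letter a and the high pair the letter b, which no source explains, and 3 SC arrays have a and 1, SC 16, has b. Within a, Rgs2 averaged 11.13 in MC and 11.52 in SC, a difference of -0.39, and within b it averaged 12.18 in MC, against 11.36 in the single SC array, a difference of 0.82. With the letter as a term, added after these values were seen, MC minus SC was 0.04 (SE 0.26, adjusted p = 0.997 by limma). Gng7 and Ptpn5 were likewise higher in the b than in the a arrays of MC, by 0.81 and 0.55, and the summed markers of cortical neurons were above the MC mean in both a arrays (by 1.20 and 0.19) and below it in both b arrays (by 0.46 and 0.93). Averaged over MNL minus SNL and MC minus SC, Rgs2 was higher after METH by 0.40 (SE 0.17, unadjusted p = 0.0285, adjusted p = 0.359 by limma), where 12.4% of all probes had an unadjusted p under 0.05 and 0.257% passed after adjustment. With the letter as a term this average was 0.33 (adjusted p = 0.581 by limma).

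On the lesioned side Rgs2 differed little after METH. It lay in ML between 10.72 and 11.87 with a median of 11.48, and in SL between 11.07 and 11.78 with a median of 11.34, and the whole SL range fell inside that of ML. The difference of 0.03 (SE 0.21, adjusted p = 1.00 by limma) changed sign when some single arrays were left out. The METH effect on the lesioned side less that on the non-lesioned side was -0.59 (SE 0.31, 95% interval -1.23 to 0.04, adjusted p = 1.00 by limma), so a different response of the 2 sides was not shown. No probe passed the adjusted threshold in that test or in ML minus SL (0% of 9732), where 2.14% and 1.9% had an unadjusted p under 0.05. The striatum numbers of the 2 sides run as neighbours (ML 2 and MNL 1, for example), and although the labels do not say that neighbours are 1 rat, Rgs2 was lower in ML than in the neighbouring MNL striatum in 6 of 6 cases, by between 0.11 and 0.61. In SL it was lower than in the neighbouring SNL striatum in 2 of 5. Adcy5, Pde10a and Rgs9 were each lower in ML than in the neighbouring MNL striatum in 5 of 6. Gng7, Rgs4 and Ptpn5 were lower in 4, Ppp1r1b in 3, and Gnal and Pde1b in 2. The share of all probes lower in 6 of 6 or in 5 of 6 is not given, so these counts alone do not show a difference between the sides. With neighbours as a block, ML minus MNL was -0.31 for Rgs2 (SE 0.17, unadjusted p = 0.0731, adjusted p = 0.9999 by limma). With neighbours as a block, 8 probes passed the test of the 2 sides, and Rgs2, at -0.57 (SE 0.24, unadjusted p = 0.0259, adjusted p = 0.739 by limma), was not among them.

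The other 9 genes had METH differences between -0.14 and 0.19 in MNL minus SNL. Ptpn5 gave the highest of these at 0.19 and Pde10a the lowest at -0.14. In ML minus SL all 10 genes lay between -0.09 and 0.20, with Pde1b at the top and Rgs4 at the bottom. None passed limma's test in MC minus SC, where 0.0103% of probes did.

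Some genes that respond to cyclic AMP and calcium signalling were higher in the same striata. Of 13 tested CREB factors and cyclic AMP-responsive genes, 3 rose in MNL against SNL by limma and none fell: Nr4a3 by 1.83 (adjusted p = 0.00132), Fos by 1.45 (adjusted p = 9.35e-05) and Junb by 1.25 (adjusted p = 0.00132), against 0.113% of all probes that passed. The other 10 did not pass. All 3 encode transcription factors made soon after a neuron is stimulated. In the average with the control rats Per1, a clock gene, passed too (0.72, adjusted p = 0.0451 by limma). None of the 7 receptors, 17 G protein subunits, 8 other RGS genes, 4 cyclases, 10 phosphodiesterases, 13 protein kinase A genes or 19 genes around DARPP-32 and STEP passed in MNL against SNL. Rgs10 had the highest difference of the other RGS genes (0.43, SE 0.17, adjusted p = 0.839 by limma).

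The highest group mean lay in MC for Ppp1r1b and Ptpn5, and in SC for Rgs4, Adcy5, Pde10a and Rgs9. For Gnal, Gng7, Pde1b and Rgs2 it lay in a group of 6-OHDA rats. MC and SC are the smallest groups, and the share of all probes with the highest mean in a control group is not given. Rgs4, Adcy5, Pde10a and Rgs9 are described here, and their group means spanned 0.72, 0.65, 0.61 and 0.46 on the log2 scale. Rgs2 spanned 0.62 (MNL highest, SNL lowest), and the median span over all probes tested was 0.25. Such spans grow with the SD within groups, which lay between 0.26 and 0.40 for these genes, against a median of 0.22 over all probes tested. Rgs4 lay in SL between 11.46 and 12.06 with a median of 11.71, in SNL it gave 11.57, 11.72, 12.01, 12.05 and 12.20, in MC 11.77, 12.00, 12.11 and 12.21, and in SC 12.09, 12.11, 12.63 and 12.69. SC 6 and SC 8a were above every other array of the series for Rgs4, while SC 15 and SC 16 fell among the highest arrays of SNL and MC.

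SL minus SC, a comparison added after the values had been seen, gave -0.64 for Rgs4, a ratio of 0.644 (SE 0.16, 95% interval -0.97 to -0.30, unadjusted p = 0.000475, adjusted p = 0.0970 by limma). The 2 groups did not overlap, as in 1.63% of all probes with SL the lower. Rgs4 ranked 47 of 9732 probes, and 0.164% passed the adjusted threshold. It passed when SC 15 or SC 16 was left out (adjusted p = 0.0370 and 0.0419 by limma) and in no other setting tried. With the letter in the titles of control striata as a term it was -0.57 (adjusted p = 0.180 by limma). For SNL minus SC the difference of Rgs4 was -0.47 (SE 0.17, adjusted p = 0.987 by limma), for ML minus MC, also added later, -0.36 (SE 0.16, adjusted p = 0.999 by limma), for MNL minus MC, likewise added, -0.15 (SE 0.16, adjusted p = 1.00 by limma), and for MC minus SC -0.36 (SE 0.18, adjusted p = 0.772 by limma). None of the 10 genes passed in these comparisons or in ML minus SNL, where 0%, 0.0822%, 0%, 0.0103% and 0.0925% of probes did. The comparisons of SL, SNL and MC with SC share the same 4 SC arrays.

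Adcy5 was also highest in SC by its group means, and lowest in SL. SL lay between 8.66 and 9.51 with a median of 9.17, the MC arrays gave 9.28, 9.36, 9.40 and 9.52, and the SC arrays 9.59, 9.71, 9.83 and 10.20. All SL and all MC arrays were thus below all SC arrays, while SNL, at 8.76, 8.95, 9.04, 9.70 and 10.48, overlapped SC. The difference from SC was -0.65 in SL (SE 0.22, adjusted p = 0.155 by limma), -0.44 in MC (SE 0.24, adjusted p = 0.772 by limma) and -0.45 in SNL (SE 0.23, adjusted p = 0.987 by limma). Groups that did not overlap made up 1.47% of all probes with MC lower than SC.

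Pde10a and Rgs9 were lower in SL than in SC by limma's estimates of -0.61 (SE 0.24, adjusted p = 0.201) and -0.44 (SE 0.20, adjusted p = 0.262). Rgs9 reached down to 12.11 in SL 12 and up to 13.35 in SL 28, while in SC it was narrow, between 13.25 and 13.42. Over the 10 genes 9 had a negative value in SL minus SC, as did 54.1% of all probes. The median was -0.30, against -0.02 over all probes tested, and 4 genes had an unadjusted p under 0.05, as did 17.6% of all probes. The exception in sign was Gng7 at 0.14 (SE 0.26). Without the striata numbered 9 to 12, Gnal (0.07), Gng7 (0.29) and Pde1b (0.21) were positive. Pde10a and Rgs9 then had an unadjusted p of 0.0567 and 0.0685 by limma, and Rgs4 and Adcy5 of 0.00104 and 0.0163. With all arrays, 17 of the 20 other spiny neuron genes also had a negative value (median -0.18), and Tac1 (-1.43, adjusted p = 0.00970 by limma) and Pdyn (-0.997, adjusted p = 0.0242 by limma) fell. Rasd2, which encodes the small GTPase Rhes, gave -0.74 and Drd1 -0.65, and neither passed (adjusted p = 0.104 and 0.185 by limma). Between the same groups, 8 of 9 microglial markers had a positive and 7 of 10 oligodendrocyte markers a negative difference, with medians of 0.34 and -0.32, and their part in these differences was not tested. The summed microglial markers lay between 12.36 and 12.84 in SL and between 11.94 and 12.47 in SC (log2), with Cx3cr1 not detected on any array. Their medians were close, 12.45 in SL and 12.41 in SC, and the lowest SC array, SC 6, lay 0.37 below its group mean.

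The 10 genes varied within groups, and most of them varied together. The pooled SD within groups was between 0.26 for Rgs4 and 0.52 for Pde1b (log2), for probes detected on every array. The median over all probes tested was 0.22, which includes probes not detected on every array. By mean level the main probes of the 10 genes lay between percentiles 71.6 and 99.5 of the probes tested, and no median SD for probes of like level is given. Pairs of the 10 genes were compared by their deviations from the group mean over the 31 arrays. The median Pearson r of the 45 pairs was 0.63, against 0.00 over all pairs of 7088 genes, and 75.6% of the pairs had an r above 0.5, against 4.66% of all gene pairs.

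**Figure D3:**
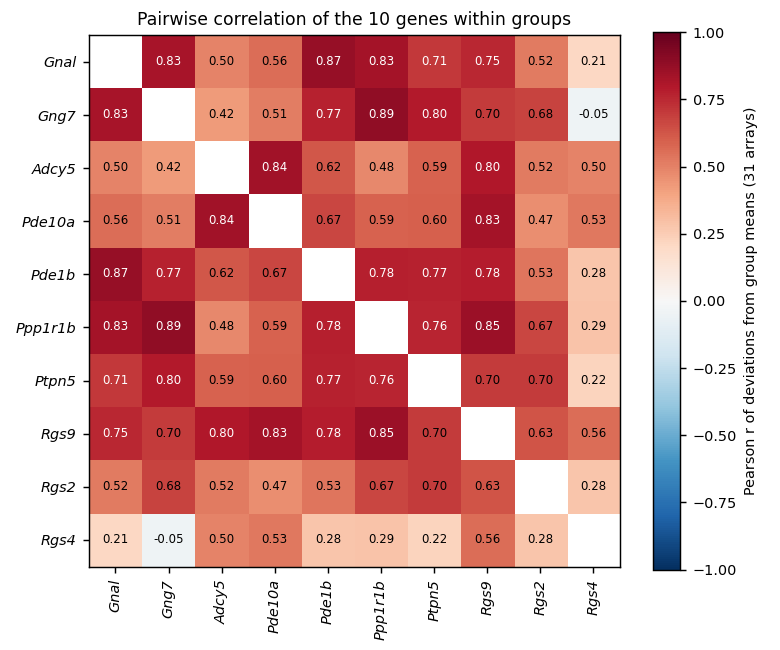
Pearson r of each pair of the 10 genes, from deviations from the group mean on 31 arrays, with the value printed in each cell. Values run from -0.05 for Gng7 with Rgs4 to 0.89 for Ppp1r1b with Gng7, and the row of Rgs4 is the palest.

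The closest pair was Ppp1r1b and Gng7, with r = 0.89 and Spearman's rho = 0.84 (permutation p = 1e-05 for both, the smallest that 100000 permutations can give, adjusted p = 6.4e-05 for r over 45 pairs). Without the 2 arrays on which the deviation of Ppp1r1b lay farthest from its median, r was 0.85. Gnal and Pde1b followed with r = 0.87 and rho = 0.81, and Adcy5 and Pde10a had r = 0.84 and rho = 0.82 (permutation p of 1e-05 to 3e-05 for these pairs). After adjustment over 45 pairs 39 passed 0.05 by both r and rho in the permutation test. All 36 pairs without Rgs4 were among them, the lowest being Gng7 with Adcy5 at r = 0.42 and rho = 0.41 (permutation p = 0.00892 and 0.0245). Of the 9 pairs with Rgs4 only those with Rgs9, Pde10a and Adcy5 passed, at r = 0.56, 0.53 and 0.50, and Rgs4 with Gng7 gave r = -0.05 (permutation p = 0.806). The pairs share arrays and quantile normalization, and were not compared with each other by a test.

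**Figure D4:**
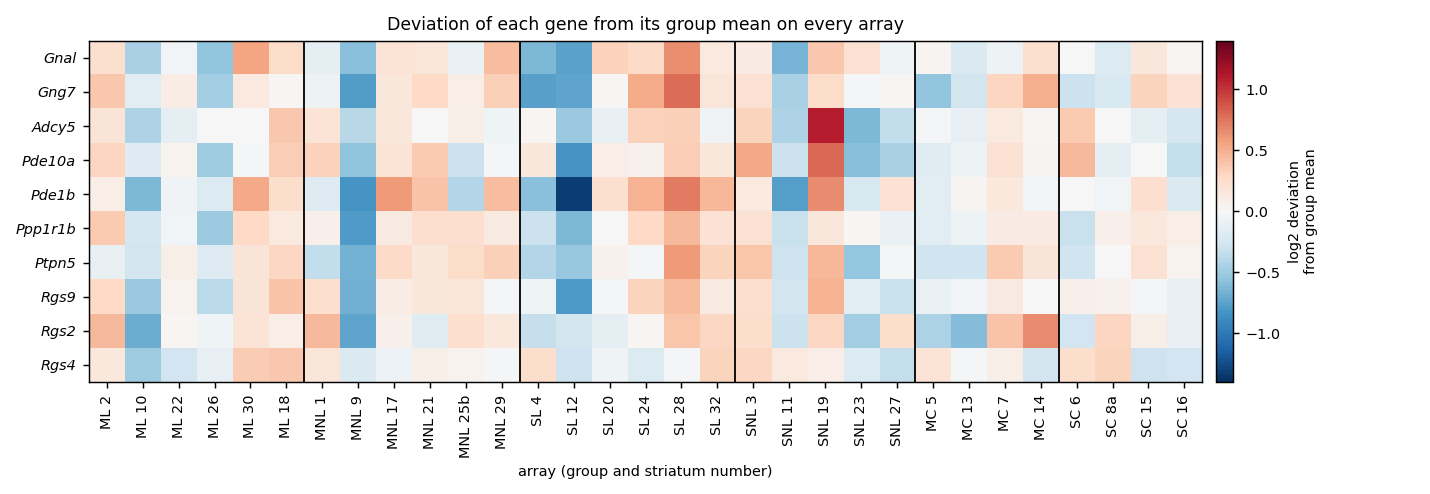
Deviation of each gene (rows) from its group mean on each of the 31 arrays (columns, by group and striatum number), in log2 units from blue for low to red for high. Whole columns run blue in MNL 9, ML 10 and SL 12 and red in SNL 19. In SL 28 all genes but Rgs4 (-0.02) are red, and the lowest cell is Pde1b in SL 12 at -1.32.

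A few striata carried much of this. Averaged over the 10 genes, SL 12 lay 0.67 and MNL 9 0.62 below their group means, ML 10 lay 0.41 below and SNL 11 0.36 below (log2). On SL 12, MNL 9 and ML 10 all 10 genes were under the group mean, and on SNL 11 9 of them. At the other end SNL 19 lay 0.47 and SL 28 0.47 above, with 10 and 9 genes above the mean. Within control rats the averages stayed between -0.17 and 0.18 in MC and between -0.09 and 0.07 in SC. Without the 4 striata numbered 9 to 12, a choice made after seeing these values, the median r of the 45 pairs was 0.45, and 43 pairs stayed above 0 but 20, not 34, above 0.5. Ppp1r1b with Gng7 (0.84) and Adcy5 with Pde10a (0.82) were then the highest, and Gng7 with Rgs4 the lowest at -0.31. Without these 4 striata none of the 10 genes passed in any of the 13 comparisons, as with them, and Rgs2 in MNL minus SNL became 0.69 (adjusted p = 0.564 by limma).

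The 10 genes were set against summed marker levels of each cell type on the same arrays, again as deviations from the group mean, in 110 relations with 11 measures. The summed level of the 20 other spiny neuron genes moved with 9 of the 10, most closely with Rgs9 (r = 0.88, rho = 0.87, permutation p = 1e-05 for both, adjusted p = 0.000137 for r). Without the 2 arrays on which the deviation of this sum lay farthest from its median, r was 0.85. Rgs4 had the same sign and narrowly missed the threshold, with r = 0.47 and rho = 0.51 (permutation p = 0.0123 and 0.00812, adjusted p = 0.0597 and 0.0525). Summed markers of cortical glutamatergic neurons ran the other way for 9 of 10 genes and passed for 4 in Pearson's r but for 2 of these, Gng7 and Ppp1r1b, in rho, led by Gng7 (r = -0.74, rho = -0.62, permutation p = 1e-05 and 0.00191, adjusted p = 0.000137 and 0.0162). Interneuron markers were negative for all 10 and passed for Adcy5 (r = -0.80, rho = -0.74, permutation p = 3e-05 for both, adjusted p = 0.000275 and 0.00055), Pde10a and Rgs9. Without the 2 arrays farthest from the median in the interneuron sum, r was -0.63 for Adcy5, -0.51 for Pde10a and -0.41 for Rgs9. Oligodendrocyte markers were negative for all 10 too and passed for none. Microglial markers were negative for all 10 and passed for Gnal and Pde1b. Neither the median signal of the array nor its number of detected probes passed for any of the 10 genes, with r between -0.47 and 0.32.

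On the arrays where the 10 genes were low, the cortical sum lay 0.98 above its group mean in MNL 9 and 1.09 above in SL 12, but 0.18 above in SNL 11 and 0.29 below in ML 10. Those last 2 arrays carried more of other markers: the choroid plexus sum lay 1.404 above its group mean in ML 10 and 1.26 above in SNL 11, and the oligodendrocyte sum 0.41 and 0.24 above. The choroid plexus sum was also high in SL 4 (2.08 above) and ML 30 (1.17 above), where the 10 genes averaged 0.26 below and 0.24 above their group means, and it passed with none of the 10 genes. The sum of the other spiny neuron genes was below its group mean on all 4, by 0.55 in MNL 9, 0.35 in SL 12, 0.34 in ML 10 and 0.32 in SNL 11. The summed cortical markers, with all 5 that have a probe detected, ranged between 7.63 and 9.57 in ML, 7.66 and 9.45 in MNL, 7.46 and 10.00 in SL, 8.64 and 9.31 in SNL, 7.55 and 9.69 in MC and 7.61 and 9.85 in SC (log2). Groups overlapped in this sum, and the part of these markers in the levels of the 10 genes was not tested.

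The genes most like each of the 10 over all 31 arrays were looked for among 7088 genes by Pearson r, as a description. Ppp1r1b ran most closely with Ppp1ca, a catalytic subunit of protein phosphatase 1 (0.89), then with Neu2 (0.89) and Actn2 (0.88). Gnal was nearest to Pde1b (0.88), Rgs8 (0.81) and Asic4 (0.81), and Pde1b to Gnal (0.88), Cap1 (0.86) and Dph1 (0.83). For Gng7 the nearest were Asic4 (0.88), Utp25 (0.86) and Bag1 (0.85). Adcy5 followed Rasd2, the striatum-enriched small GTPase Rhes (0.89), Entrep3 (0.89) and the diacylglycerol kinase Dgka (0.88). Pde10a followed Atp2b1, a plasma membrane calcium pump (0.92), Rasd2 (0.86) and Rgs9 (0.86). Rgs9 followed Scn4b, a sodium channel beta subunit (0.90), Adora2a, the adenosine receptor that acts through Golf (0.90), and Slc22a3 (0.89). Rgs2 was nearest to Sertad4 (0.89), Pdp1 (0.86) and Cyp2j3 (0.84), and Ptpn5 to Actn2 (0.87), Utp25 (0.86) and Zswim5 (0.86). Rgs4 had the lowest values of the 10, with Exoc6 (0.82), the calcium sensor gene Hpca (0.81) and Ttc9 (0.81).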

How the data were processed

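The authors deposited, per probe and array, a signal intensity from BeadStudio with background subtracted and no normalization between arrays, and a detection p-value against negative controls. They also deposited a log2 table, which equals the log2 signal less a probe constant (within 0.1) in 30 columns; how the constant was chosen stays unknown, column medians lay between -0.123 and 0.380, and it served as an alternative. The deposited column of ML 22 in it holds a fraction, 1 minus the detection p-value, and was not used. Signals were corrected with nec in limma 3.58.1 (R 4.3.3; offset 16, background estimated from the detection p-values), quantile normalized and put on the log2 scale. A probe needed detection on 4 or more arrays to enter a single limma fit of the 6 group means (25 residual degrees of freedom), followed by Benjamini-Hochberg adjustment over 9732 probes. A gene was read from its probe with the highest mean level. Probe genes came from the platform annotation (13790 probes with 1 symbol, 8729 with none, 0 symbols changed). Levels of single probes are not compared with each other, since probe brightness differs. Summed marker levels add normalized linear intensities over the probes of a list, so its brightest probes weigh most. Correlations used 100000 permutations within groups (Python 3.11.15, numpy 2.4.6). The fit and the correlations were tested on simulated data.

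The genes named were the 10, up to 4 genes of a list past the threshold, otherwise those with the largest difference, and 3 most alike per gene. Members and lists were chosen with earlier results of these data known. Alternatives were another scaling, background, filter, table and test, and leaving out arrays.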

Additional observations from a re-analysis of the deposited data

Results flagged for a closer look

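In 5 of 66 sets of values (11 probes in 6 groups) 1 array lay far from the rest of its group by Dixon's criterion, a number that chance alone brings near 1 in 20 sets. MNL 9 was the lowest of its group for 3 genes: Ppp1r1b at 12.20, with the next array at 13.07, Rgs9 at 12.44, with the next at 13.10, and Gng7 at 9.27, with the next at 9.98 (log2 intensity). SL 12 was lowest for Pde10a at 10.50, with the next array at 11.38. SC 6 was lowest for Ppp1r1b at 12.71, with the next at 13.10. MNL 9 and SL 12 were low in all 10 genes, SC 6 in 4 of 10.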

How the results depend on the processing

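No gene of the 10 was called in any of 13 comparisons in the fit reported, and 310 of 312 counts under alternatives were 0 as well. The exceptions were 1 gene, Rgs4, in SL minus SC without SC 15 and without SC 16, so that counts without 1 array ranged between 0 and 1 there. Of 35 named differences under 811 alternative values, 792 kept their sign and their side of the threshold, 17 changed sign and 2 passed it. All sign changes were in Rgs2. Its averaged lesion difference of -0.01 became 0.0165 with median scaling and 0.0211 in the deposited log2 table, and ranged between -0.0882 and 0.0558 when 1 array was left out. Its ML minus SL difference became -0.0011 in the deposited log2 table and ranged between -0.0635 and 0.168 when 1 array was left out, and its MC minus SC difference lay between -0.0441 and 0.381. The median pairwise r of 0.63 was 0.61 with median scaling, 0.64 without the 2 arrays moved back, and 0.45 without the 4 striata numbered 9 to 12. The groups share no replicate numbers, and no source pairs the striata. Neighbouring numbers as a random replicate block (consensus correlation 0.348) changed no call of the 10 genes, although over all probes the calls went to 51 for the averaged lesion difference (17 without the block), 29 for ML minus MNL (12), 17 for SL minus SNL (8), 8 for the METH effect by side (0) and 2 for MC minus SC (1). With 1 array left out the averaged lesion difference ranged between -0.238 and -0.0226 for Adcy5, -0.232 and -0.0031 for Pde1b, -0.167 and -0.0109 for Gnal, -0.210 and -0.0684 for Ppp1r1b, -0.172 and -0.046 for Ptpn5, -0.344 and -0.169 for Pde10a and 0.084 and 0.239 for Gng7. With the letter in the control titles as a term, 9 probes passed in SL minus SC (16 without it) and 0 in MC minus SC (1). All 11 probes were detected on every array, the weaker Ppp1r1b probe least clearly, with a lowest signal of 56.0 before normalization. The SE of SL minus SNL was between 0.13 and 0.29 on the log2 scale over the 11 probes.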
